A study of Arabidopsis thaliana with 36 samples.

Results

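The genes described here encode proteins of the cytosolic ribosome of Arabidopsis thaliana. They are 57 loci chosen by name as genes of 40S and 60S ribosomal proteins, out of 33977 genes in the deposited table. The choice was made with earlier results of these data known, and it leaves out other genes of cytosolic ribosomal proteins. All 57 reached the level needed for testing, among 18875 genes tested. The small 40S subunit is represented by 25 of them and the large 60S subunit by 32, in 32 protein families, of which 21 hold more than one of the loci.

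A cytosolic ribosome is built in the nucleolus from ribosomal RNA and ribosomal proteins, and the small subunit then reads the messenger RNA while the large subunit joins amino acids. Plants keep several gene copies for most ribosomal proteins, and their messenger RNAs are known to be made together and in quantity where cells grow and divide. The growth-promoting kinase TOR acts on the system through S6 kinase, which phosphorylates the small-subunit protein RPS6.

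RNA of whole rosettes of the accession Col-0 was sequenced after poly(A) selection, so that the level of messenger RNA was measured and not that of protein or ribosomes. Plants were 4 weeks old, had grown at 22 °C with 8 h of light a day, and stood in a caesium gamma irradiator giving 1.4 cGy per second for 7 s (10 cGy) or 71 s (100 cGy). Mock plants were not exposed, and their handling is not given further. Rosettes were taken 1, 3, 24 or 72 h later, which makes 12 groups of 3 libraries, 36 in all. The labels do not say that replicates were separate plants or exposures, and p-values reflect spread among libraries that may be technical. In whole rosettes, fewer cells of a type and less RNA per cell cannot be told apart.

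Depth, recovered from the step between CPM values (reads of a gene scaled to a fixed library total of 1e6), ran from 22.1 to 36.7 in units of 1e6. A floor of 3 counts stood for 0.0818 to 0.136 CPM. The rosette label was checked with 6 leaf genes, whose summed level ran from 45354 to 63432 CPM. Of 4 root genes, EXPA7 was at 0 in all 36 libraries, EXPA18 in 34 and COBL9 in 21, while BGLU23 was at 44.5 to 149 CPM. None of the 5 flower genes reached the level needed for testing. Over genes, libraries of one group correlated at Pearson r of 0.979 to 0.994.

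The sequences just upstream of the genes are shown because promoters of plant ribosomal protein genes are known for short words, among them the site II word (TGGGCC or TGGGCT) and the telo-box (AAACCCTA). Each sequence below is the 250 bases before the annotated gene start, read from RefSeq TAIR10.1 by locus tag. The deposited table itself holds no coordinates. Capitals mark matches to either word on either strand, and matches may overlap. RPL19B had the largest fall after 10 cGy at 72 h, RPL24B the most site II matches, and RPS9B and RPS9C are copies of a family with very different levels. The windows are chr3:5708576-5708825 (plus strand, RPL19B), chr3:19662026-19662275 (minus, RPL24B), chr5:4936430-4936679 (minus, RPS9B) and chr5:15949660-15949909 (plus, RPS9C).
RPL19B: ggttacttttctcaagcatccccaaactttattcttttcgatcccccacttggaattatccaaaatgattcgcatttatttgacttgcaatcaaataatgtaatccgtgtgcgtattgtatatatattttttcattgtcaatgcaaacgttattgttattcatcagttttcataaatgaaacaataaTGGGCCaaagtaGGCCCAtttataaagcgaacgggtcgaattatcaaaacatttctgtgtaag
RPL24B: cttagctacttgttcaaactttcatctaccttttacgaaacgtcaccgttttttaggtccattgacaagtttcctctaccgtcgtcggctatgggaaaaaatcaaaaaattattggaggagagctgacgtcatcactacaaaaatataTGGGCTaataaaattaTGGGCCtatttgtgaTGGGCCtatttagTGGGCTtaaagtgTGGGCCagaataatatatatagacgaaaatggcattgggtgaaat
RPS9B: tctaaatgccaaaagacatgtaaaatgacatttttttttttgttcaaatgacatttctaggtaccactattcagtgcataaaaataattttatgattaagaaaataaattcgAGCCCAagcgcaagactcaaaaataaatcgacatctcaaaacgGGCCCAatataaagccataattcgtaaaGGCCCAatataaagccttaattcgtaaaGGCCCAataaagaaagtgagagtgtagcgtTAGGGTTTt
RPS9C: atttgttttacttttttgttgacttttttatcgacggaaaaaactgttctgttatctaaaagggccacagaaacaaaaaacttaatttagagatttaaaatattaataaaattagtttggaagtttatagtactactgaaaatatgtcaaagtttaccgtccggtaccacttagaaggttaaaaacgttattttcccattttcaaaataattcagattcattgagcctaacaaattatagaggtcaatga

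A site II match stood in the window of 37 of 57 members (64.9%), against 19.2% of 27444 protein-coding nuclear genes of the annotation and 22.9% of those tested. A telo-box match stood in 11 members (19.3%), against 4.49% and 3.57%. Both words were present in 7 members and neither in 16. The members held 93 site II matches, of which 89 lay within 150 bases of the start, and 27 members held 2 or more. RPL24B had 5, RPS9B had 4 and a telo-box, and RPS9C had neither. A match is a description of letters and says nothing of a factor bound there.

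Levels between genes were compared per kb of coding sequence, as means over the 36 libraries. The median member stood at 298 CPM per kb, and 44 of 57 lay between 100 and 500. Among the highest were RPL27AC (AT1G70600) at 713, RPL10A (AT1G14320) at 580, RPL18B (AT3G05590) at 547 and RPS9B (AT5G15200) at 517 CPM per kb. RPL10A encodes a large-subunit protein needed for the subunits to join. Among the lowest were RPSAB (AT3G04770) at 11.1, RPS9C (AT5G39850) at 13.1, RPL11A (AT2G42740) at 24.7 and RPS2D (AT3G57490) at 32.2 CPM per kb. Including these, 7 members lay under 100.

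**Figure D1:**
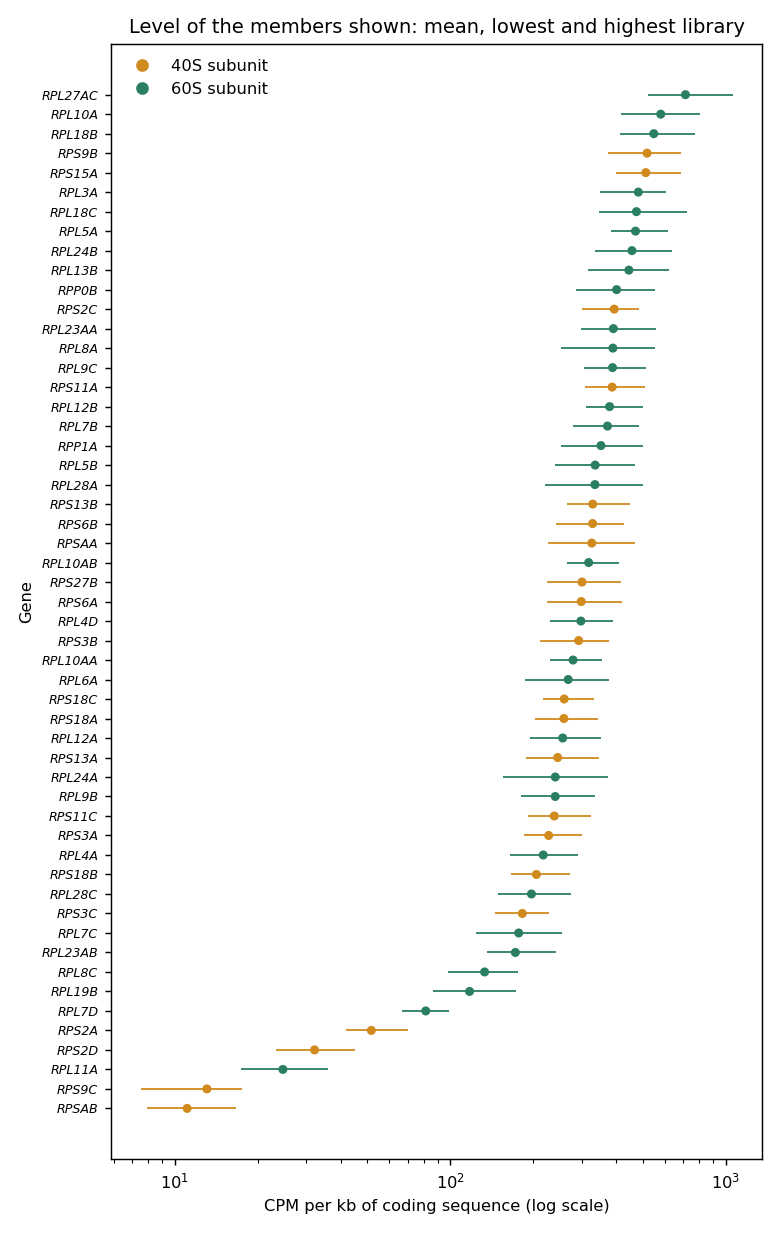
Level of 53 of the 57 members in CPM per kb of coding sequence (log axis): the point is the mean of 36 libraries and the line runs from the lowest to the highest library, orange for the 40S and green for the 60S subunit. RPL27AC is highest of those drawn at 713 and RPSAB lowest at 11.1.

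Copies of a protein family share stretches of sequence, and RSEM, which the submitters' processing notes name with no role given, is known to divide such reads among copies by estimation. The 29 pairs of copies were 70.4% to 99.1% identical in coding sequence (median 85.5%). RPL9B and RPL9C differed at 5 positions and shared a run of 458 identical bases, so their separate values are uncertain. The first 60 coding bases of the 3 copies of RPS18, a protein of the small-subunit head, are shown as an ordinary case, with capitals at the 12 positions where the copies differ.
RPS18A: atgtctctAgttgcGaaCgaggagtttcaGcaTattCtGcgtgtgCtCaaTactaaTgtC
RPS18B: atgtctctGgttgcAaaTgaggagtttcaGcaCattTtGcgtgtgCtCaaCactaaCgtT
RPS18C: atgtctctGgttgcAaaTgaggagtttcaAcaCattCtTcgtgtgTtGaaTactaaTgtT

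In percentage points, the share of a family's CPM that each copy took varied little. A weak copy could still change much against its own level. RPSAB averaged 9.45 CPM in mock rosettes at 1 h and 14.7 CPM at 24 h, while RPSAA averaged 296 and 240 CPM. One copy held over 90% in 3 of the 21 families with copies, among them RPS9B at 97.5% of RPS9 and RPSAA at 96.2% of RPSA. In 10 families the leading copy held under 60%. The widest range of a share over the libraries was 9.31 percentage points, for RPL8A, which ran from 68.4% to 77.7% of RPL8, a protein of the peptidyl transferase region.

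The summed level of the 57 genes was 1.08% of the CPM total in mock rosettes at 1 h and 1.41% in mock rosettes at 3 h. In mock rosettes the sum was 10788 ± 77.2 CPM at 1 h, 14144 ± 396 at 3 h, 10298 ± 311 at 24 h and 12035 ± 1297 at 72 h (SD, n = 3 libraries). After 10 cGy it was 10456 ± 699, 12940 ± 195, 9438 ± 523 and 9352 ± 245 CPM at these times. After 100 cGy it was 10788 ± 28.7, 12976 ± 1267, 8917 ± 372 and 10955 ± 923 CPM. The 72 h mock libraries stood at 11335, 13531 and 11238 CPM, so replicate 2 lay above the other two. The 10 cGy libraries at 72 h stood at 9114, 9339 and 9604 CPM, all below every mock library of that time. Those of 100 cGy at 72 h stood at 10126, 11950 and 10790 CPM and overlapped with mock. Both doses at a time are compared with the same mock libraries.

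**Figure D2:**
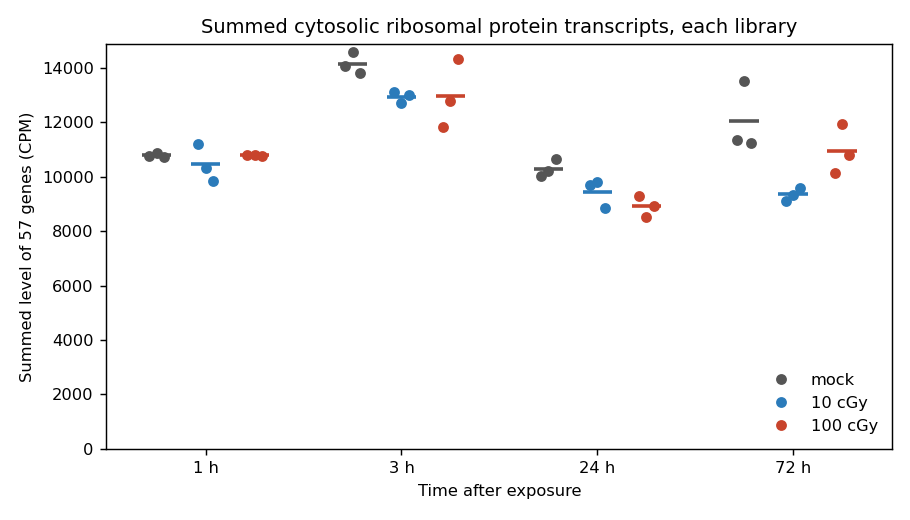
Summed level of the 57 genes in CPM (vertical axis, from 0) by time after exposure: points are libraries and bars are group means, grey for mock, blue for 10 cGy and red for 100 cGy. At 72 h the 10 cGy libraries, at 9114 to 9604 CPM, lie below all mock libraries, and mock stands highest at 3 h.

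Most members passed the test against mock at one time and dose, 72 h after 10 cGy. There, 54 of the 57 members fell and none rose, where 4.66% of all tested genes fell and 4.72% rose. Members were chosen with earlier results known, and of the other cytosolic ribosomal protein genes given below a smaller share fell. The median log2 difference was -0.36 over the members and 0.03 over all genes tested, and the summed level fell by 22.3%. The fold changes are differences of log2(CPM + 0.5), tested with limma and adjusted over all genes tested. In 55 of 57 members the 3 irradiated libraries lay below all 3 mock libraries, as in 11.9% of all genes. Both subunits took part, with 23 of 25 genes of the 40S and 31 of 32 of the 60S called.

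The call rests in part on the mock group: without mock replicate 2 at 72 h, 21 of 57 members were called, and the median was -0.27. With only the libraries of 72 h in the fit, 29 were called. After median-ratio rescaling of the libraries 55 were called.

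Among small-subunit genes, RPS6A (AT4G31700) encodes the S6 kinase target RPS6. Its level at 72 h was 228, 286 and 220 CPM in mock rosettes, 171, 173 and 188 CPM after 10 cGy and 198, 246 and 207 CPM after 100 cGy. The 10 cGy libraries lay below all mock libraries, and those of 100 cGy overlapped with mock. RPS6A fell by 0.46 on the log2 scale after 10 cGy (SE 0.087, adjusted p = 0.00218), and its copy RPS6B (AT5G10360) by 0.34 (SE 0.068, adjusted p = 0.00298).

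RPS11A (AT3G48930), for another protein of the small subunit, stood at 197, 240 and 194 CPM in mock rosettes, 149, 149 and 159 CPM after 10 cGy and 168, 203 and 182 CPM after 100 cGy. Again the 10 cGy libraries were the lowest, and RPS11A fell by 0.46 (SE 0.086, adjusted p = 0.00189). RPS18A (AT1G22780), RPS18B (AT1G34030) and RPS18C (AT4G09800) fell by 0.36, 0.35 and 0.28 (adjusted p = 0.0086, 0.00333 and 0.0281). RPS18A is the gene mutated in the Arabidopsis pointed first leaf mutant.

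Among large-subunit genes, RPL19B (AT3G16780) had the largest fall, 0.49 (SE 0.084, adjusted p = 0.00106). It stood at 80.6, 92.9 and 73.1 CPM in mock rosettes, 56.6, 55.3 and 62.1 CPM after 10 cGy and 63.1, 79.9 and 73.9 CPM after 100 cGy. The 10 cGy libraries of RPL19B lay below all others of that time. RPL24A (AT2G36620) fell by 0.46 (SE 0.12, adjusted p = 0.0165), with mock libraries at 123, 153 and 114 CPM and those of 10 cGy at 86.7, 89.2 and 106 CPM. RPL24 is known in Arabidopsis for restarting translation on messenger RNAs with upstream reading frames, and its second copy RPL24B (AT3G53020) fell by 0.32 (adjusted p = 0.0176). The call for RPL24A did not hold in the fit of 72 h libraries alone or without mock replicate 2, 10 cGy replicate 1 or 10 cGy replicate 2. Of the 54 calls at 72 h 21 were kept under every omission of 1 library, among them RPL19B, RPS6A, RPS6B and RPL4A. Without mock replicate 2 the adjusted p was 0.151 for RPL24A, 0.169 for RPL24B and 0.0815 for RPL5B. It was 0.108 for RPS18A, 0.237 for RPS18C, 0.211 for RPL23AA, 0.174 for RPL23AB and 0.0509 for RPL10A, so these calls were lost too.

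RPL5A (AT3G25520), for a protein that binds 5S ribosomal RNA, stood at 436, 522 and 456 CPM in mock rosettes and at 353, 354 and 353 CPM after 10 cGy. The irradiated libraries were nearly equal and all below mock. RPL5A fell by 0.41 (SE 0.074, adjusted p = 0.00154) and RPL5B (AT5G39740) by 0.36 (SE 0.082, adjusted p = 0.00603). RPL4, which lines the exit tunnel, had falls of 0.37 in both RPL4A (AT3G09630; adjusted p = 0.00243) and RPL4D (AT5G02870; adjusted p = 0.000767). RPL4D had mock libraries at 399, 436 and 400 CPM and 10 cGy libraries at 311, 326 and 316 CPM. Of the other genes at the tunnel exit, RPL23AA (AT2G39460) and RPL23AB (AT3G55280) each fell by 0.31 (adjusted p = 0.0252 and 0.0213). RPP0B (AT3G09200), for the base of the stalk that receives elongation factors, fell by 0.35 (adjusted p = 0.00171), and RPL10A by 0.32 (adjusted p = 0.00355).

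Of the 57 members 3 were not called at 72 h after 10 cGy, RPL9B and RPS9C among them. RPL9B (AT1G33120) had -0.24 (adjusted p = 0.0738) with overlapping groups. RPS9C had 0.01 (adjusted p = 0.966). Its libraries were at 7.18, 7.66 and 9.22 CPM in mock rosettes, 8.16, 7.7 and 8.31 CPM after 10 cGy and 9.77, 8.36 and 9.7 CPM after 100 cGy. Its far more abundant copy RPS9B, at 317, 377 and 302 CPM in mock rosettes, stood at 251, 268 and 260 CPM after 10 cGy and fell by 0.35 (adjusted p = 0.00277).

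**Figure D3:**
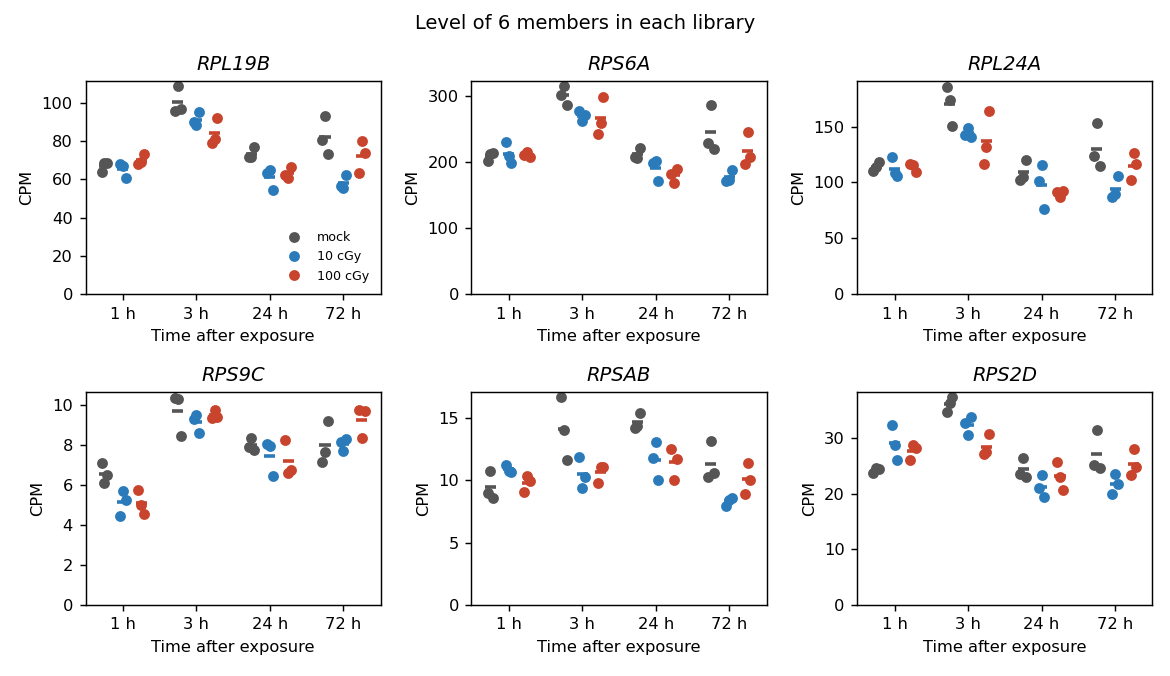
Level of 6 members in CPM (vertical axes, from 0) by time after exposure: points are libraries and bars group means, grey for mock, blue for 10 cGy, red for 100 cGy. RPL19B, RPS6A and RPL24A share a shape in mock rosettes with a high point at 3 h, and their 10 cGy libraries lie below mock at 72 h, which those of RPS9C do not.

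Summing the listed copies of a family takes out reads moved among them, though copies outside the 57 loci are not included. Family sums lay below mock without overlap in 32 of 32 families 72 h after 10 cGy, with changes of -29.5% to -16.7% and a median of -22.6%. At 100 cGy no family was without overlap at that time, and the changes ran from -12.9% to -4.55%. Sums also lay below mock without overlap in 26 of 32 families 3 h after 10 cGy, in 7 of 32 at 3 h after 100 cGy and in 28 of 32 at 24 h after 100 cGy. Single genes lay wholly below mock in 13.0%, 4.41% and 10.2% of all genes tested in these comparisons, and in 11.9% at 72 h after 10 cGy. The same share over sums of other families was not computed. The median log2 difference after 10 cGy was -0.36 in the 37 members with a site II match and -0.35 in the 20 without.

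At 72 h after the higher dose, none of the 57 members passed the test, where 0.217% of all tested genes fell and 1.37% rose. The median log2 difference was -0.14 over the members and 0.04 over all genes. It was -0.04 without mock replicate 2 and -0.09 without 100 cGy replicate 1. Unadjusted p-values under 0.05 were seen for 12 members, all lower, as for 4.21% of all genes in that direction, and no member had groups without overlap, where 5.26% of all genes lay wholly below mock. Without 100 cGy replicate 2 the test called 1 member. Set directly against 10 cGy, the 100 cGy libraries gave 0 calls among the members and 0 among all genes (0%). The differences between the doses were 0.14 to 0.39, above 0 in 57 of 57 members and in 56.2% of all genes. Unadjusted p was under 0.05 in 52 members, as in 6.99% of all genes in that direction. In 48 members the 100 cGy libraries lay above all 10 cGy libraries, as in 8.95% of all genes. A difference between the doses was thus not established after adjustment, and without 100 cGy replicate 1 the same test called 3 members.

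The other genes of the translation system were counted for comparison. At 72 h after 10 cGy, 3 of 3 genes for RACK1, a scaffold on the small subunit, fell, with RACK1C at -0.46 (adjusted p = 0.00199). Of 19 nucleolar genes for ribosome assembly, 12 fell and none rose (median -0.31), and FIB1, for the rRNA methylase fibrillarin, had -0.37 (adjusted p = 0.00232). Of 20 translation factor genes 12 fell and none rose, with a median of -0.22, and EF1Bgamma2, for a subunit of an elongation factor, had -0.26 (adjusted p = 0.00188). None of 6 genes for TOR and S6 kinase was called (median 0.07). Of 66 other tested genes whose product names are of cytosolic ribosomal proteins, 38 fell and 1 rose (median -0.33). Of 23 nuclear genes named for organelle ribosomal proteins, 6 fell and none rose (median -0.16). After 100 cGy none of these lists had a fall, and S6K2 rose by 1.45 (SE 0.28, adjusted p = 0.0123). Its rise was not limited to that time and dose. S6K2 was also called higher 3 h after 100 cGy (1.24, adjusted p = 0.00579) and 1 h after 10 cGy (0.79, adjusted p = 0.0343).

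The summed level of 4 genes that mark dividing cells at 72 h was 71.6 to 83.5 CPM in mock rosettes, 62.2 to 65.6 CPM after 10 cGy and 62.3 to 71.7 CPM after 100 cGy, and 1 of 4 fell after 10 cGy. The 5 genes of meristem and young leaf overlapped between groups, at 30.6 to 44.2 CPM in mock rosettes and 30.7 to 39.6 CPM after 10 cGy. Their part in the result was not tested.

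**Figure D4:**
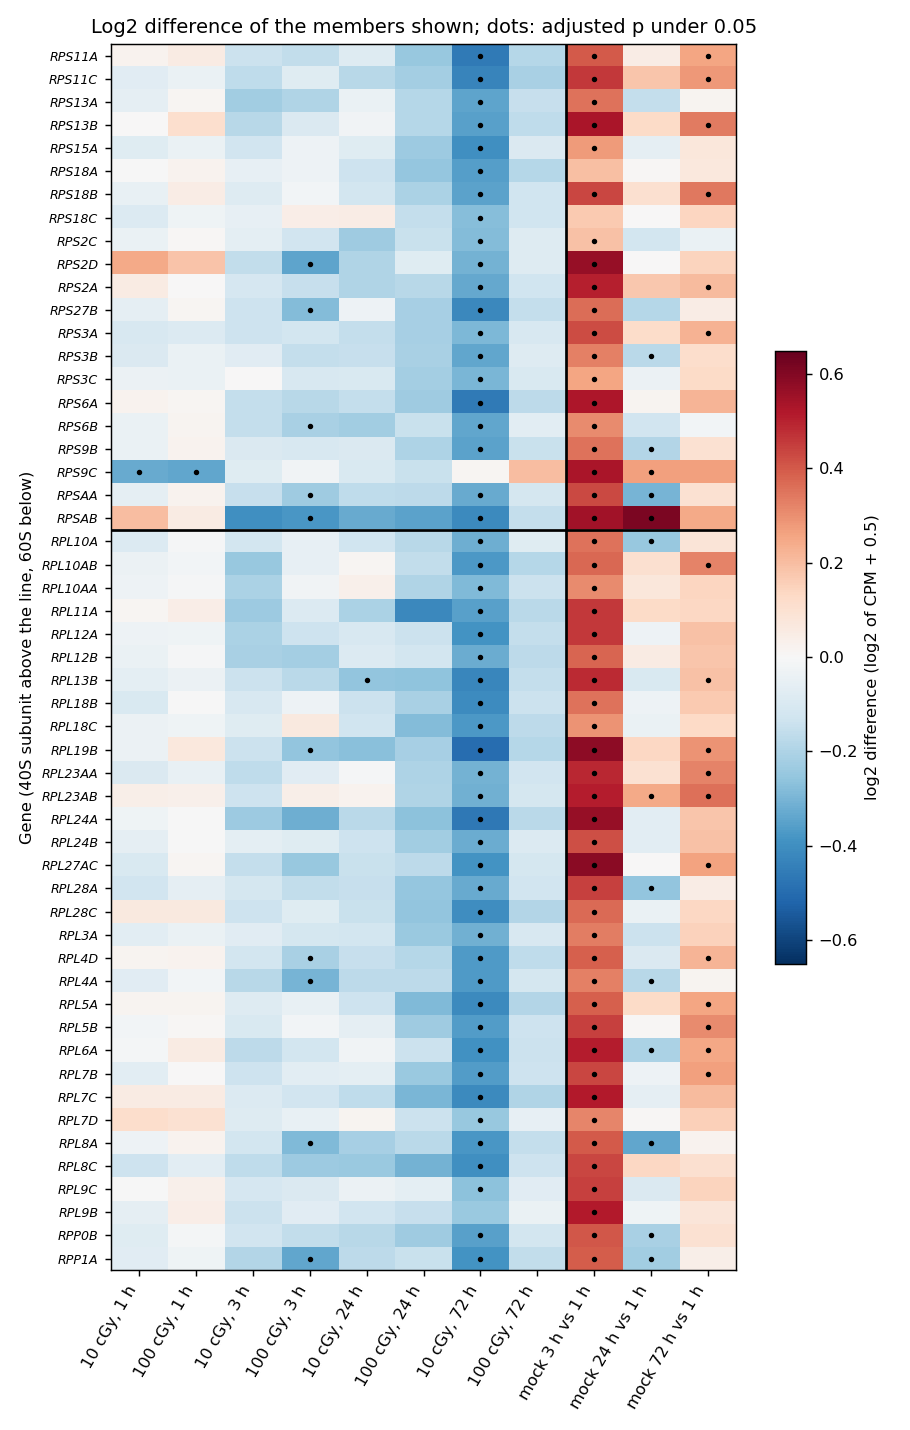
Log2 difference (colour, log2 of CPM + 0.5) of 53 of the members, rows grouped by subunit and columns by comparison, doses against mock of the same time on the left and mock times against mock 1 h on the right; dots mark an adjusted p under 0.05. The dots nearly fill the columns of 10 cGy at 72 h (51 of the 53 drawn) and of mock at 3 h (51 of 53).

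At 1 h the set was near mock at both doses. After 10 cGy 1 of 57 members fell and none rose, where 11.8% of all tested genes fell and 13.6% rose. After 100 cGy 1 fell and none rose, where 7.37% fell and 10.3% rose. The medians were -0.04 and 0.01, and that of 10 cGy was -0.10 without 10 cGy replicate 1. The called gene was RPS9C at both doses, with 7.11, 6.1 and 6.49 CPM in mock rosettes, 4.47, 5.69 and 5.28 CPM after 10 cGy and 5.78, 5 and 4.54 CPM after 100 cGy. All irradiated libraries of RPS9C lay below mock, and it fell by 0.33 (SE 0.11, adjusted p = 0.0232) and by 0.34 (SE 0.11, adjusted p = 0.0259). The call after 10 cGy did not hold without mock replicate 1 or 10 cGy replicate 1. The call after 100 cGy did not hold without mock replicate 1 or 3 or 100 cGy replicate 2 or 3, and 0 members were called without any of these. Without 10 cGy replicate 3 the test after 10 cGy called 2 members. No member was called between the doses, where 0.726% of all genes were, and 1 member had an unadjusted p under 0.05, as did 9.45% of all genes. The 4 dividing-cell genes summed to 56.4 to 58.7 CPM in mock rosettes, 38.7 to 47.4 CPM after 10 cGy and 46.1 to 51.6 CPM after 100 cGy at 1 h.

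At 3 h after 100 cGy, 10 of 57 members fell and none rose, where 1.86% of all tested genes fell and 10.6% rose. The median was -0.12, against 0.09 over all genes, and the summed level was lower by 8.25%, or by 15.1% after median-ratio rescaling. The median was -0.05 without 100 cGy replicate 1 and -0.19 without 100 cGy replicate 3. Among the called members the largest falls were in RPSAB, for a small-subunit protein, at 0.38 (SE 0.12, adjusted p = 0.0371), RPS2D, for a protein near the mRNA entry, at 0.34 (SE 0.093, adjusted p = 0.0179), RPP1A (AT1G01100), a stalk protein gene, at 0.34 (SE 0.091, adjusted p = 0.0181) and RPL4A at 0.30 (SE 0.071, adjusted p = 0.00837). RPL4A stood at 353, 356 and 331 CPM in mock rosettes and at 288, 267 and 288 CPM after 100 cGy. The count moved with single libraries, and 0 of the 10 calls were kept under every omission of 1 library. It was 0 without 100 cGy replicate 2, 16 without 100 cGy replicate 3, 6 without 100 cGy replicate 1 and 3 without mock replicate 1 or 2. Median-ratio rescaling, which moved the median of all genes by -0.11, gave 31 members that fell. The share of all genes that fell after rescaling is not given, so that count cannot be set against genes in general. Groups did not overlap in 11 members, all lower, as in 4.41% of all genes. The summed dividing-cell markers at 3 h were 76.0 to 85.9 CPM in mock rosettes, 63.1 to 67.3 CPM after 10 cGy and 65.5 to 82.2 CPM after 100 cGy.

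At 3 h after 10 cGy no member was called, where 0.721% of all genes fell and 0.774% rose, and 14 had an unadjusted p under 0.05, all lower, as did 9.22% of all genes in that direction. The median was -0.14 against -0.03 over all genes. In 42 members the irradiated libraries lay below all mock libraries, as in 13.0% of all genes. Without mock replicate 3 the test called 1 member. No member was called between the doses at 3 h, where 12.6% of all genes were, and 3 members had an unadjusted p under 0.05, as did 29.2% of all genes. Without 100 cGy replicate 1, and also after rescaling, 5 members were called. The share of all genes is given for neither.

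The test of the difference between the effects at 1 h and 3 h called 2 of 57 members for 10 cGy, where 8.78% of all tested genes had an effect that went down, and 2 of 57 for 100 cGy, where 3.60% did. Members were called no more often than all genes. Of the 2 calls for 10 cGy 0 were kept under every omission of 1 library, and of the 2 for 100 cGy 1 was. RPSAB stood at 8.99, 10.8 and 8.6 CPM in mock rosettes and 11.3, 10.8 and 10.7 CPM after 10 cGy at 1 h. At 3 h it stood at 16.7, 14 and 11.7 CPM in mock rosettes and 11.9, 9.37 and 10.3 CPM after 10 cGy. The 10 cGy libraries lay near the top of the mock range or above it at 1 h, and near its bottom or below it at 3 h. The change of its effect was -0.60 (adjusted p = 0.0139). RPS2D had changes of -0.41 after 10 cGy and -0.53 after 100 cGy (adjusted p = 0.0357 and 0.00812), and RPL8A (AT2G18020) had -0.31 after 100 cGy (adjusted p = 0.0427).

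At 24 h the members lay a little below mock at both doses, mostly short of the threshold. After 10 cGy the median was -0.14, against 0.07 over all genes. Below 0 were 52 of 57 members and 31.7% of all genes. The summed level was lower by 8.35%, or by 13.3% after median-ratio rescaling. Of the 57 members 1 fell and none rose, where 0.673% of all tested genes fell and 2.62% rose. It was RPL13B (AT3G49010), for a large-subunit protein, at 240, 248 and 262 CPM in mock rosettes and 222, 209 and 197 CPM after 10 cGy. The irradiated libraries were the lower ones, and RPL13B fell by 0.26 (SE 0.073, adjusted p = 0.0445). It was called without 10 cGy replicate 1 but not without any 1 of the other 5 libraries. The number of members called was 0 without any of the mock libraries or 10 cGy replicate 3, 3 without 10 cGy replicate 1 and 2 without 10 cGy replicate 2. Rescaling, which moved the median of all genes by -0.08, gave 11 members that fell, and the matching share of all genes is not given.

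After 100 cGy at 24 h the median was -0.21, against -0.01 over all genes, and all 57 members were below 0, as were 52.1% of all genes. Of the 57 members 1 fell and none rose, where 0.397% of all tested genes fell and 0.201% rose, while 45 members had an unadjusted p under 0.05, all lower, as did 8.35% of all genes in that direction. Without any 1 of the 6 libraries 0 members were called. In 47 members the irradiated libraries lay below all mock libraries, as in 10.2% of all genes. The summed level was lower by 13.4%, or by 12.6% after median-ratio rescaling, which is close to the rescaled value for 10 cGy. The summed dividing-cell markers were 65.4 to 75.6 CPM in mock rosettes, 67.1 to 75.5 CPM after 10 cGy and 56.3 to 61.5 CPM after 100 cGy at 24 h. No member was called between the doses, where 1.13% of all genes were. Unadjusted p was under 0.05 in 10 members, all lower after 100 cGy, as in 15.9% of all genes in that direction. In 12 members the 100 cGy libraries lay below all 10 cGy libraries and in 0 above, where 16.7% of all genes lay below.

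Between 3 h and 24 h no change of effect was called in a member at either dose, where 2.70% of all genes were called for 10 cGy and 2.89% for 100 cGy. Unadjusted p-values under 0.05 were seen in 2 and 3 members, as in 17.6% and 20.0% of all genes. Without 100 cGy 3 h replicate 1, 3 members were called for 100 cGy. The step from 24 h to 72 h was not called in any member. For 10 cGy the median change of the effect was -0.23, against -0.05 over all genes, with 25 members and 7.41% of all genes lower at an unadjusted p under 0.05 and 0% of all genes called. Without mock 72 h replicate 2 that median was -0.13. For 100 cGy it was 0.07 (0.02 to 0.17 when 1 library was left out), with 1 member and 8.01% of all genes at an unadjusted p under 0.05 and 0.00530% of all genes called. That the 10 cGy effect is larger at 72 h than at 24 h was thus not established.

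**Figure D5:**
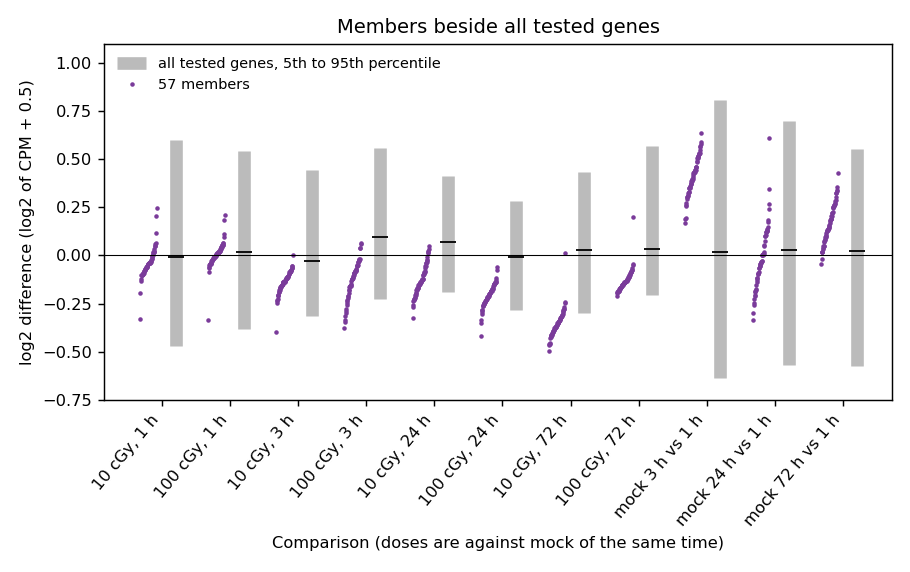
Log2 differences of the 57 members (purple points, sorted within each comparison) beside all tested genes (grey bar from the 5th to the 95th percentile, black mark at the median). Members lie lowest 72 h after 10 cGy, at a median of -0.36, and highest in mock at 3 h against 1 h, at 0.42.

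The levels also differed between harvest times in mock rosettes. In mock rosettes at 3 h against 1 h, 55 of 57 members rose and none fell, where 24.0% of all tested genes rose and 20.1% fell. The median was 0.42, against 0.02 over all genes, the summed level was higher by 31.1%, and in all 57 members the 3 h libraries lay above all 1 h libraries, as in 29.0% of all genes. Leaving out any 1 library gave 53 to 55 members. The hour of day and the age of the plants changed with harvest time and cannot be told apart from it.

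The largest rises at 3 h included those in RPL27AC at 0.59 (SE 0.088, adjusted p = 3.2e-06), RPL19B at 0.58 (SE 0.084, adjusted p = 1.72e-06) and RPL24A at 0.57 (SE 0.12, adjusted p = 0.000385). RPL27AC stood at 281, 290 and 293 CPM at 1 h and at 433, 467 and 402 CPM at 3 h, with no overlap. The 2 members not called were RPS18C (0.17, adjusted p = 0.0898) and RPS18A (0.20, adjusted p = 0.066), while their copy RPS18B rose by 0.44 (adjusted p = 1.35e-05). RPS18C stood at 119, 117 and 113 CPM at 1 h and at 134, 129 and 130 CPM at 3 h, and RPS18B at 89.6, 82.1 and 81.4 CPM and at 114 CPM in each library. Whether the copies differ in their rise was not tested. Family sums rose without overlap in 32 of 32 families, by 19.0% to 50.7%.

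The related genes at 3 h in mock rosettes had 3 of 3 RACK1 genes that rose, RACK1C by 0.70 (adjusted p = 1.67e-07), and 16 of 19 nucleolar genes, led by FIB2 at 1.38 (adjusted p = 6.5e-11). Of 20 translation factor genes 12 rose and 1 fell. PAB8, for a poly(A)-binding protein, rose by 0.44 (adjusted p = 1.86e-05), and TCTP1 fell by 0.33 (adjusted p = 0.00184). Of 6 genes for TOR and S6 kinase 3 fell and none rose, S6K1 by 1.11 (adjusted p = 5.01e-15). Of the 66 other cytosolic ribosomal protein genes 52 rose and 5 fell, and of the 23 organelle ones 12 rose and 1 fell. The dividing-cell markers went from 56.4 to 58.7 CPM at 1 h to 76.0 to 85.9 CPM at 3 h, and 2 of 4 rose. Their part in the result was not tested.

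At 24 h in mock rosettes 3 members rose and 10 fell against 1 h, where 20.3% of all genes rose and 18.1% fell, so the members were not called more often than genes in general. RPSAB rose by 0.61, RPS9C by 0.27 and RPL23AB by 0.24. RPL8A fell by 0.34, RPSAA by 0.30, RPL28A by 0.26 and RPL10A by 0.25. Of the 13 calls 5 were kept under every omission of 1 library, RPSAB, RPL8A, RPSAA and RPL10A among them. Those of RPS9C, RPL23AB and RPL28A were not kept. RPSAB, at 14.2, 14.4 and 15.4 CPM against 8.99, 10.8 and 8.6 CPM at 1 h, thus moved against its copy RPSAA, at 242, 239 and 238 CPM against 304, 294 and 289 CPM. The number called was 5 without mock 1 h replicate 2 or mock 24 h replicate 1, and 7 without mock 1 h replicate 3 or mock 24 h replicate 2. At 72 h 19 members rose and none fell against 1 h, where 18.4% of all genes rose and 14.9% fell, among them RPL23AB (0.36), RPS18B (0.34) and RPS13B (0.34). Without mock 72 h replicate 2 that number was 6.

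The members followed a common course over the libraries. The median Pearson correlation of a pair of members over 36 libraries was 0.87. Of the 57 members 54 correlated above 0.8 with the members' mean, as did 754 of 18818 other tested genes. Each member is itself part of that mean and the other genes are not, which favours the members. Lowest were RPSAB (0.39) and RPS9C (0.46), both of them weak copies. The libraries share their groups, harvest times and depth, so these values describe a course and not separate events. The 5 other genes most like the mean were AT3G49910 (0.99), AT5G07090 (0.98), AT1G67430 (0.98), AT2G34480 (0.98) and AT3G62870 (0.97). AT5G07090 is named as an RPS4A family gene in the annotation, AT1G67430 as L22p/L17e, AT2G34480 as L18ae/LX and AT3G62870 as L7Ae/L30e/S12e/Gadd45.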

How the data were processed

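The labels gave each library its group, dose and time. Unused data columns numbered 0. The deposited table holds CPM for 33977 genes, each library summing to 1e6. Trimmomatic 0.32, STAR 2.5.2b, RSEM 1.2.28 and the build TAIR10 are named per the submitters' processing notes, with no role or order. A second deposited table, on a log scale, was not used. Of the CPM values, 87.6% to 90.4% per library were whole multiples of the smallest step (tolerance 0.02), so no count test was run. Floors cover counting error only.

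A gene was tested if 3 or more libraries reached a CPM of 1. limma 3.58.1 (R 4.3.3, tables read by data.table, version 1.17.8) fitted a mean for each group to log2(CPM + 0.5) of the 36 libraries together, with a variance trend. Benjamini-Hochberg adjustment ran over all genes tested within each of 21 contrasts, with calls at 0.05. The pseudocount makes changes of weak genes smaller. The code was tested on simulated data.

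Members and lists were chosen with earlier results of these data known. Lists taken from product names date from after the data had been seen. Named members are the 4 largest called rises and falls per contrast, the 5 highest and 5 lowest per kb and a fixed set of 17 (among them copies of RPS6, RPS18, RPL4, RPL5, RPL23A and RPL24, with RPL10A and RPP0B), with the 5 genes most alike in course and, per list, direction and contrast, the called gene of smallest p, of which some are printed. Values of 4 single members are not reported here. Members outside this rule were named after their values were seen. Names, coordinates and sequences came from RefSeq TAIR10.1 by locus tag, with biopython 1.88. Tables and figures used python 3.11.15, pandas 2.3.3, numpy 2.4.6 and matplotlib 3.10.9. Alternatives were other pseudocounts (0.1, 1), no filter, rescaling, no trend, a replicate block, own-time fits and leaving out each library.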

Additional observations from a re-analysis of the deposited data

Results flagged for a closer look

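A test of the difference between the effects at 1 h and 3 h called 2 of 57 members for each dose (limma, adjusted over all genes tested), where 8.78% of all genes for 10 cGy and 3.60% for 100 cGy had an effect that went down, so members were called no more often than all genes. For RPSAB the effect of 10 cGy moved by -0.60 (SE 0.17, adjusted p = 0.0139). The difference from mock was 0.20 at 1 h and -0.40 at 3 h. For RPS2D it moved by -0.41 after 10 cGy (SE 0.13, adjusted p = 0.0357) and by -0.53 after 100 cGy (SE 0.13, adjusted p = 0.00812). RPS2D stood at 23.8, 24.7 and 24.4 CPM in mock rosettes at 1 h and 34.7, 36.3 and 37.4 CPM at 3 h, against 26, 28.7 and 28.2 CPM and 27, 27.4 and 30.7 CPM after 100 cGy. For RPL8A the effect of 100 cGy moved by -0.31 (SE 0.10, adjusted p = 0.0427). Both doses share the mock libraries of each time. Of the 2 calls for 10 cGy 0 were kept without any 1 library, and of the 2 for 100 cGy 1 was.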

How the results depend on the processing

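The median of the members kept its direction or stayed within the replicate spread in all 246 alternatives, and no result was scored as reversed. By that rule a median near 0 can change sign unscored. With 1 library left out, that of 100 cGy against 10 cGy at 3 h ran from -0.06 to 0.08. The change of the 10 cGy effect from 3 h to 24 h ran from -0.04 to 0.05. Among 408 values of named genes under alternatives 83 lost their call. Other pseudocounts moved no count of called members by over 1.5 times. Without a filter on low values the members called were 6 (100 cGy, 3 h), 0 (10 cGy, 24 h), and 1 for each of the changes from 1 h to 3 h. Median-ratio rescaling, which shifted the median of all genes by -0.11 for 100 cGy at 3 h and by -0.14 for 100 cGy against 10 cGy at 3 h, gave 2 (10 cGy, 1 h), 31 (100 cGy, 3 h), 5 (100 cGy against 10 cGy, 3 h), 11 (10 cGy, 24 h) and 12 (100 cGy, 1 h to 3 h). No share of all genes is given beside counts of members after rescaling. Rescaling gave sums of 11063 CPM (mock, 1 h), 10972 CPM (100 cGy, 1 h) and 13304 CPM (10 cGy, 3 h). The sums moved most for 100 cGy at 3 h, from 12976 to 12112 CPM (from -8.25% to -15.1% against mock), and for 10 cGy at 24 h, from 9438 to 9021 CPM (from -8.35% to -13.3%). Without a variance trend the counts were 0 (10 cGy, 24 h) and 1 (100 cGy, 1 h to 3 h). With only the libraries of the time they were 1 (10 cGy) and 0 (100 cGy) at 1 h, 4 (100 cGy, 3 h), 0 for both doses at 24 h and 29 (10 cGy, 72 h).

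With a replicate block the counts were 2 (10 cGy, 1 h), 0 (10 cGy, 24 h) and 54 (10 cGy, 72 h), and no other count moved by over 1.5 times. The labels do not say whether libraries with the same replicate number shared any handling. Same-numbered libraries had residual correlations from -0.43 to 0.41, and differently numbered ones from -0.56 to 0.43. At 24 h same-numbered mock and 100 cGy libraries stood at 0.25, 0.34 and 0.31. Those of mock and 10 cGy stood at 0.41, 0.12 and -0.08, and those of the 2 doses at 0.35, 0.37 and -0.26. A shared batch at 24 h was not tested.

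Leaving out each library of a contrast in turn gave 0 to 2 (10 cGy, 1 h), 0 to 1 (100 cGy, 1 h), 0 to 1 (10 cGy, 3 h), 0 to 16 (100 cGy, 3 h), 0 to 5 (100 cGy against 10 cGy, 3 h), 0 to 3 (10 cGy, 24 h), 0 to 0 (100 cGy, 24 h), 21 to 54 (10 cGy, 72 h), 0 to 1 (100 cGy, 72 h) and 0 to 3 (100 cGy against 10 cGy, 72 h). In mock rosettes it gave 5 to 9 (24 h) and 6 to 25 (72 h). Changes of effect gave 1 to 2 (10 cGy, 1 h to 3 h), 1 to 4 (100 cGy, 1 h to 3 h) and 0 to 3 (100 cGy, 3 h to 24 h). The low value of 21 came without mock replicate 2 at 72 h, and 21 of the 54 calls were kept without any 1 library. The causes were not tested. RPSAB and RPS9C, among the lowest members, stood above the floor of 3 counts in all 36 libraries.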
